A study of Mus musculus with 9 samples.

Results

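Granzyme B and 5 serpins (Gzmb, Serpina3f, Serpina3g, Serpinb9, Serpinb9b and Serpinb6b) were followed across resting, activated and TEPP-46-treated mouse CD4+ T cells. These 6 genes are a listed set out of 47937 gene identifiers in the count table, matched by their GENCODE M21 symbols, and all 6 were among the 12536 genes tested. They were picked because Gzmb and Serpina3f differed strongly between the TEPP-46 libraries, so the values of those 2 genes with TEPP-46 are given as a description, without a test. Granzyme B is a serine protease that cytotoxic lymphocytes store in granules and deliver into target cells, where it cleaves death-inducing substrates after aspartate residues. Serpins are suicide inhibitors: a protease that cuts the exposed reactive loop is trapped in a covalent complex. Cells that make granzymes also make intracellular serpins, which protect them from protease that leaks into their own cytosol. In CD4+ T cells Gzmb is known as a gene switched on by receptor stimulation and interleukin-2.

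The 9 libraries came from spleen CD4+ T cells of C57BL/6 mice that were selected on magnetic beads for CD62L, a marker of naive cells. In the TEPP-46 group (3 libraries), cells were held for 15 min with TEPP-46 at a concentration given only as a range of 50 to 100 µM, and then stimulated with plate-bound antibodies to CD3 and CD28. In the DMSO group (3 libraries), cells were held for 15 min with the solvent and stimulated in the same way. The resting group (3 libraries) held the bead-selected cells without the stimulus. TEPP-46 activates pyruvate kinase M2, the Pkm splice form of proliferating cells that catalyses the last step of glycolysis, and the comparisons ask which transcripts follow activation and which differ when this enzyme is activated by a drug. The duration of the stimulus, the age and sex of the mice and whether replicates 1, 4 and 5 were separate animals are not stated in the labels. The p-values therefore rest on the spread among these libraries alone, and that spread may be technical.

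The members lie in 3 places of the GRCm38 genome. Gzmb (ENSMUSG00000015437) lies at chr14:56258838-56262260 on the minus strand. Serpina3f (ENSMUSG00000066363, chr12:104214544-104221129) and Serpina3g (ENSMUSG00000041481, chr12:104236245-104241939) are neighbours on the plus strand, 15.1 kb apart. Serpinb6b (ENSMUSG00000042842, chr13:32965209-32979067), Serpinb9 (ENSMUSG00000045827, chr13:33003250-33017957) and Serpinb9b (ENSMUSG00000021403, chr13:33027416-33041884) share 76.7 kb of the plus strand. The longest coding transcripts of Serpina3f and Serpina3g were 87.4% identical over 1796 aligned positions, and those of Serpinb9 and Serpinb9b 66.3% over 3104. Of all 50-base stretches of a transcript, 10.7% in Serpina3f and 16.0% in Serpina3g also occurred in transcripts of other genes, mostly other Serpina3 genes. That share was 0% for Gzmb, 0.38% for Serpinb9, 0.499% for Serpinb9b and 3.12% for Serpinb6b. Counts of Serpina3f and Serpina3g are therefore the least certain of the set, since how the authors counted reads that match several genes was not stated in the sources read for it. Serpinb9b overlaps the predicted gene Gm36099 on the other strand, and the strand setting of the counting was not stated there either.

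Promoter windows from 250 bases before to 50 after the annotated start (RefSeq, GRCm38.p6) are printed for Gzmb, for the Serpina3f and Serpina3g pair of neighbours with similar transcripts, and for Serpinb9, the granzyme B inhibitor. All 6 members had a window in that table, 2 of them in the case of Serpina3f, of which the upstream is shown. Capitals mark matches on either strand to 6 motifs: AP-1 (TGANTCA), the cyclic AMP response element (TGACGTCA), RUNX (TGTGGT), the STAT-binding GAS element (TTCNNNGAA), the interferon-stimulated response element (GAAA repeated after a gap of 2 bases) and an NF-kB motif (GGG and TTTCC with 2 bases between them).
Gzmb, chr14:56262285-56262584, minus strand: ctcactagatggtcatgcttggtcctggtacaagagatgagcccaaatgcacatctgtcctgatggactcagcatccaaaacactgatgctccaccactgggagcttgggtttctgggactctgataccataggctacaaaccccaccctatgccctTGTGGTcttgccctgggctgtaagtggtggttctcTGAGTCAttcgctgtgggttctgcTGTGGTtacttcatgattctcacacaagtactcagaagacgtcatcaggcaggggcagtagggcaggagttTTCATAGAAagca
Serpina3f, chr12:104214294-104214593, plus strand: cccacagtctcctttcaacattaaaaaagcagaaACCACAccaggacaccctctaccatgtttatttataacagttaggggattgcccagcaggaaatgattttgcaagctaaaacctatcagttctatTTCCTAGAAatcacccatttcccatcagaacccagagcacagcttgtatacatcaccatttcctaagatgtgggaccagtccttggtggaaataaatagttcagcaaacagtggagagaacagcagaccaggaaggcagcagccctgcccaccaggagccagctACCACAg
Serpina3g, chr12:104235897-104236196, plus strand: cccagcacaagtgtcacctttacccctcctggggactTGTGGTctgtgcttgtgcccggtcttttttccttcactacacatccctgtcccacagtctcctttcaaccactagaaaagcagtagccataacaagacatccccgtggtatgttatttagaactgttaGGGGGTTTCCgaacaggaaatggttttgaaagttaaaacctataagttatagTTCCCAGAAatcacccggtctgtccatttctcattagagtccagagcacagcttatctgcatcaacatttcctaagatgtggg
Serpinb9, chr13:33004291-33004590, plus strand: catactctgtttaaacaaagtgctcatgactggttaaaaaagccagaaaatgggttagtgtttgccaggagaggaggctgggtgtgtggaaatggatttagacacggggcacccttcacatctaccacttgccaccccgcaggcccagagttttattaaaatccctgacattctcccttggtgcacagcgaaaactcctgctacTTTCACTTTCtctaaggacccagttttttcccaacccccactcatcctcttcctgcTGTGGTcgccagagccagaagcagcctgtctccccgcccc
The Gzmb window held TGAGTCA at -58 (the AP-1 motif, present in 7.81% of 32851 windows of this table), TGTGGT at -93 and -34 (RUNX, 16.8%) and a GAS match at +38. Both Serpina3 windows held a GAS match, TTCCTAGAA at -121 in Serpina3f and TTCCCAGAA at -33 in Serpina3g, against 8.3% of all windows. The windows of this pair were 81.3% identical over 203 aligned positions. Serpina3g also held an NF-kB match at -85 (1.63% of windows), and Serpinb9 an interferon-stimulated response element at -46 (3.44% of windows) beside a RUNX match at +11. Windows of Serpinb9b and Serpinb6b held none of the 6 motifs, and the cyclic AMP response element (1.79% of windows) was in no member's window. Positions count from the RefSeq start, which can differ from the GENCODE gene bounds given above. By those bounds the Gzmb and Serpina3g windows lie wholly upstream of the gene and the Serpinb9 window wholly within it. A match is a run of letters and not a measured binding site.

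Total counts ran from 2397304 to 3900023 in TEPP-46, 3773438 to 4043226 in DMSO and 3903124 to 5030643 in resting libraries. Levels are in CPM, counts per 1000000 after TMM scaling, and changes are given on the log2 scale ± SE, tested with edgeR's quasi-likelihood method, with p adjusted by Benjamini-Hochberg over all genes tested. The SE is the size of the log2 change divided by the square root of the test's F statistic. It rests on 1 estimate of spread per gene, shared by all 3 groups, and not on the 2 groups compared alone. Uneven TEPP-46 libraries therefore also enter the SE of DMSO against resting cells. For Gzmb the SD of log2 CPM was 1.61 in TEPP-46, 0.30 in DMSO and 0.48 in resting libraries. The 8 genes that identify CD4 T cells summed to 7201 to 8565 CPM in TEPP-46, 4097 to 5182 in DMSO and 4588 to 7983 in resting libraries, and Cd4 and Cd3e were present in each library. The TEPP-46 libraries were uneven: the nuclear RNA Malat1 stood at 2532, 12290 and 12820 CPM in replicates 1, 4 and 5, against 2067 to 4120 CPM in DMSO libraries and 4373 to 8385 CPM in resting libraries. TEPP-46 replicate 4 also had the lowest total count. The median over genes of the SD of log2 CPM was 0.51 among TEPP-46, 0.20 among DMSO and 0.31 among resting libraries. In bulk RNA, fewer cells that express a gene and less RNA per cell cannot be told apart.

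Gzmb had the largest activation fold of the set, being nearly silent in resting cells and abundant after stimulation. It had 410.6, 619.5 and 469.1 CPM in DMSO replicates 1, 4 and 5, against 2.82, 5.55 and 3.25 CPM in resting replicates 1, 4 and 5. The DMSO and resting libraries did not overlap, and Gzmb rose 129-fold by group means (log2 fold change 7.02 ± 0.86, edgeR adjusted p = 0.000611). This call held in each of the 18 alternatives run, with a highest adjusted p of 0.00463.

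With TEPP-46, Gzmb stood at 361.1, 48.7 and 54.3 CPM in replicates 1, 4 and 5. Replicate 1 was just under the lowest DMSO library, while replicates 4 and 5 were well below all DMSO libraries and above all resting libraries. The mean was 154.7 ± 178.7 CPM in TEPP-46 and 499.7 ± 107.8 CPM in DMSO libraries (SD, n = 3 each), a log2 difference of -1.69 ± 0.66 that moved to -3.28 without TEPP-46 replicate 1. Relative to resting cells the log2 difference was 5.34 ± 0.81 with TEPP-46, and 3.75 without replicate 1. The 3 TEPP-46 libraries thus all lay between resting and DMSO levels, at positions that differed 7.41-fold between replicates 1 and 4.

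**Figure D1:**
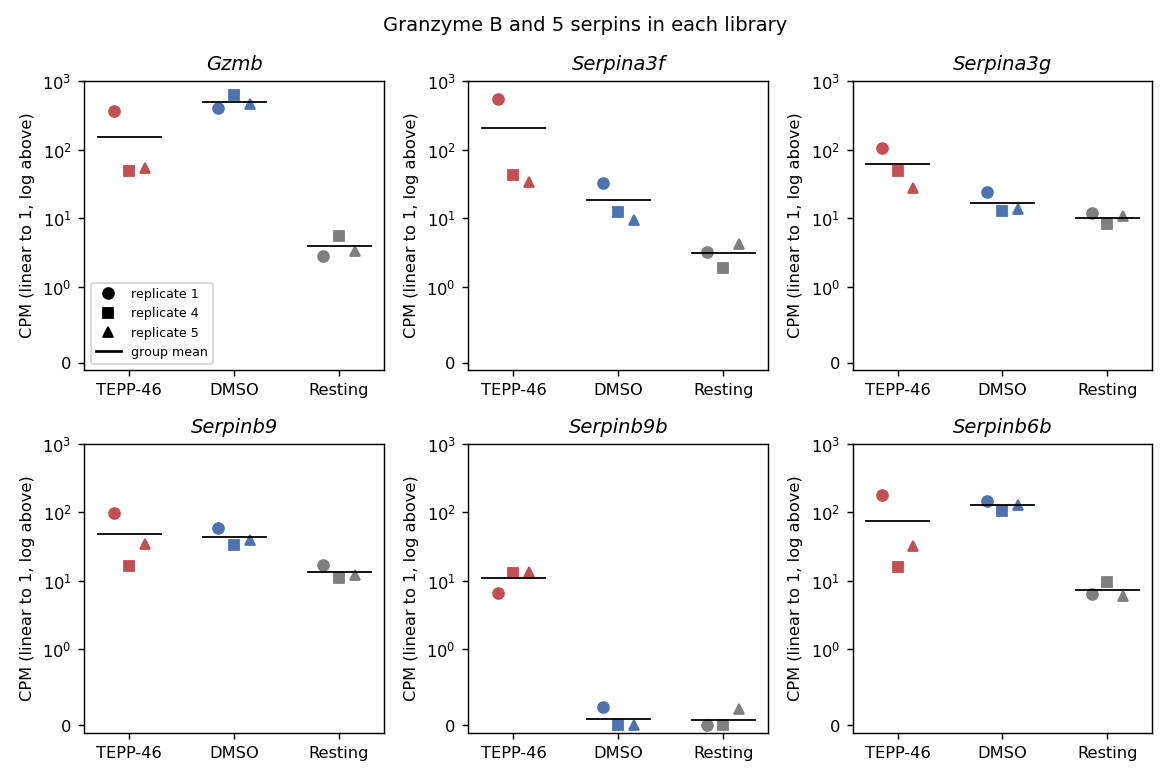
Level of each gene in each library in CPM (vertical axis, linear up to 1 and logarithmic above) for TEPP-46, DMSO and resting cells, with a marker shape per replicate and a line at the group mean (n = 3 libraries). TEPP-46 replicate 1 is the highest TEPP-46 library for 5 of the 6 genes, and Serpinb9b has counts of 24 or more in TEPP-46 libraries only.

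Among the other granzymes, 0 of 9 had enough counts to be tested. Their summed level was 0 to 8.09 CPM in TEPP-46, 1.68 to 3.43 CPM in DMSO and 6.92 to 17.5 CPM in resting libraries. Gzma, the tryptase granzyme of NK and CD8 T cells, had 1, 0 and 21 counts in TEPP-46 replicates 1, 4 and 5, against 1, 0 and 2 counts in the DMSO libraries and 4, 9 and 9 counts in the resting libraries. Gzmb was thus the only granzyme of the 10 in the table with enough counts to pass the filter. Markers of other cytotoxic cells were uneven. The NK receptor gene Ncr1 had 1 count over the TEPP-46 libraries, 0 over the DMSO libraries and 6 over the resting libraries. The CD8 alpha chain gene Cd8a had 1, 14 and 1 counts in TEPP-46 replicates 1, 4 and 5, against 1, 1 and 2 in the DMSO libraries and 1, 13 and 6 in the resting libraries. The beta chain gene Cd8b1 had 40, 2 and 11 counts in TEPP-46 replicates 1, 4 and 5, against 40, 41 and 30 in the DMSO libraries and 44, 71 and 78 in the resting libraries. The NK and T cell receptor gene Klrd1 had 40, 11 and 79 counts in TEPP-46 replicates 1, 4 and 5, against 0, 0 and 1 in the DMSO libraries and 28, 18 and 24 in the resting libraries, so it was higher in every TEPP-46 library than in any DMSO library (edgeR adjusted p = 0.00294). All 8 NK genes summed to 4.62 to 32.0 CPM in TEPP-46, 4.28 to 14.5 CPM in DMSO and 17.5 to 31.6 CPM in resting libraries, with Klra8 at 0 in every library.

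Unlike Gzmb, no listed gene of the granule apparatus was called higher with activation in the main fit. Of 15 listed genes of granule contents, granule release and death ligands, 14 were matched and tested. In DMSO relative to resting cells, 0 rose, 4 fell and 10 were not called, where 15.5% of all genes tested rose and 15.8% fell. The list's median log2 fold change was -0.26 against -0.04 over all genes. Prf1, the pore-forming protein that granzyme B needs to enter a target cytosol, fell to 4.41 ± 1.39 CPM in DMSO cells, against 51.7 ± 33.2 CPM in resting cells (-3.54 ± 0.58, edgeR adjusted p = 0.00201). Ctsw, a cathepsin of cytotoxic lymphocytes, fell by 1.91 ± 0.49 on the log2 scale (edgeR adjusted p = 0.0155). Lamp1, a membrane protein of lysosomes and granules, changed by -0.80 ± 0.18 (edgeR adjusted p = 0.0077), and Vamp8, a vesicle fusion protein, by -0.69 ± 0.23 (edgeR adjusted p = 0.0422). The Vamp8 call was lost in 9 of 18 alternatives, among them each DMSO or resting library left out (adjusted p up to 0.151), and the count of 4 was 2 without resting replicate 4 and 8 in limma-voom with quality weights. The count of rises was 2 with quality weights, 1 with a replicate block and 1 without resting replicate 1. The NK genes summed to 4.28 to 14.5 CPM in DMSO and 17.5 to 31.6 CPM in resting libraries. Their part in the falls of Prf1 and Ctsw was not tested.

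In TEPP-46 relative to DMSO cells, the same 4 genes were the ones called, now higher, where 9.72% of all genes tested rose. The median of the list was 0.47 against 0.04 over all genes. Prf1 stood at 13.5, 22.7 and 20.4 CPM in TEPP-46 replicates 1, 4 and 5, against 3.43, 6.00 and 3.78 CPM in the DMSO libraries (2.08 ± 0.58, edgeR adjusted p = 0.0358). Lamp1 rose by 0.94 ± 0.18 (edgeR adjusted p = 0.00911), Ctsw by 2.53 ± 0.50 (edgeR adjusted p = 0.011) and Vamp8 by 0.87 ± 0.23 (edgeR adjusted p = 0.0293). Of 3 tested genes of the NK list, Klrd1 was called higher in TEPP-46 than in DMSO cells and 2 were not called. Eomes was among these 2. It had 39, 0 and 7 counts in TEPP-46 replicates 1, 4 and 5, against 51, 23 and 14 in DMSO libraries. The part of NK cells in the Prf1 and Ctsw levels was not tested. Without resting replicate 4, any DMSO library or TEPP-46 replicate 5, the count of 4 became 0 to 2, and the Prf1 call was also lost without TEPP-46 replicate 4 (adjusted p = 0.0716). Both comparisons use the same DMSO libraries. In TEPP-46 relative to resting cells 0 of the 14 genes were called, where 10.3% of all genes tested were. The alternatives called 0 to 4 higher and 0 to 1 lower. The log2 differences from resting cells were 0.15 ± 0.18 for Lamp1, 0.62 ± 0.47 for Ctsw, 0.19 ± 0.22 for Vamp8 and -1.46 ± 0.53 for Prf1.

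Serpinb9 is the intracellular inhibitor of granzyme B in mouse lymphocytes. It stood at 96.3, 16.4 and 34.0 CPM in TEPP-46 replicates 1, 4 and 5, against 57.9, 32.9 and 38.8 CPM in DMSO replicates 1, 4 and 5 and 16.9, 11.1 and 12.1 CPM in the resting libraries. All DMSO libraries were above all resting libraries, while the TEPP-46 libraries reached above and below the DMSO range. Serpinb9 rose 3.23-fold by group means with activation (log2 fold change 1.69 ± 0.54, edgeR adjusted p = 0.0386), but the call was lost without any single resting or DMSO library (adjusted p up to 0.129). TEPP-46 and DMSO cells could not be told apart for Serpinb9 (0.19 ± 0.52, edgeR adjusted p = 0.824), and without TEPP-46 replicate 1 the difference had the other sign (-0.78, edgeR adjusted p = 0.139). Relative to resting cells the TEPP-46 level missed the threshold (1.87 ± 0.55, edgeR adjusted p = 0.0551), with DESeq2 giving an adjusted p of 0.00833.

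Serpinb6b, known in mouse as an inhibitor of granzyme A, was the second strongest activation gene of the set by fold. It stood at 177.1, 16.0 and 31.7 CPM in TEPP-46 replicates 1, 4 and 5, against 146.2, 105.6 and 127.6 CPM in DMSO replicates 1, 4 and 5 and 6.44, 9.51 and 6.06 CPM in the resting libraries. Here TEPP-46 replicate 1 exceeded every DMSO library and replicates 4 and 5 lay below all of them. Serpinb6b rose 17.2-fold with activation (4.11 ± 0.77, edgeR adjusted p = 0.00376; highest adjusted p over the alternatives 0.019). The difference between TEPP-46 and DMSO cells missed the threshold (-0.74 ± 0.66, edgeR adjusted p = 0.453), and it was -2.40 with an edgeR adjusted p of 0.000816 without TEPP-46 replicate 1. Against resting cells Serpinb6b was higher in TEPP-46 cells (3.37 ± 0.76, edgeR adjusted p = 0.0216), a call that was lost without any single resting library (adjusted p up to 0.0889). Gzma, whose product it inhibits, had 3 counts over the DMSO libraries.

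Serpinb9b, a tandem paralogue of Serpinb9, behaved differently from the rest. It had 24, 31 and 41 counts in TEPP-46 replicates 1, 4 and 5 (6.60, 13.02 and 13.26 CPM). By contrast, DMSO replicates 1, 4 and 5 had 1, 0 and 0 counts, and resting replicates 1, 4 and 5 had 0, 0 and 1 counts. The TEPP-46 libraries lay above every other library, and replicate 1, the highest for the other 5 members, was the lowest for Serpinb9b. The level with TEPP-46 was 129 times that in DMSO cells (95% counting interval 22.6 to 5136) and 141 times that in resting cells (24.7 to 5628). Serpinb9b passed the filter on low counts only through the TEPP-46 libraries, so among genes that passed it had to differ, and the counts rather than a test describe it. Only 0.499% of its 50-base stretches occur in transcripts of other genes.

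Transcripts of several other blood cell types were also higher in TEPP-46 than in DMSO libraries, unevenly between replicates. All 4 platelet genes summed to 16.5 to 271.4 CPM in TEPP-46, 0.96 to 4.91 CPM in DMSO and 0.865 to 4.83 CPM in resting libraries. All 5 mast cell and basophil genes summed to 20.6 to 90.9 CPM in TEPP-46, 5.64 to 8.16 CPM in DMSO and 15.8 to 30.98 CPM in resting libraries. The platelet chemokine gene Pf4 had 33, 367 and 141 counts in TEPP-46 replicates 1, 4 and 5, and the mast cell protease gene Cpa3 had 21, 20 and 66, with 0 counts of either over the DMSO libraries. The 7 B cell genes summed to 17.9, 302.5 and 69.2 CPM in TEPP-46 replicates 1, 4 and 5, against 14.5 to 19.7 CPM in DMSO and 29.2 to 146.6 CPM in resting libraries. The 6 neutrophil genes summed to 1.38, 131.9 and 4.21 CPM in TEPP-46, against 0 to 0.252 CPM in DMSO and 100.2 to 148.7 CPM in resting libraries, and the 6 myeloid genes to 14.3, 60.1 and 35.3 CPM in TEPP-46, against 13.1 to 18.4 CPM in DMSO and 38.2 to 57.6 CPM in resting libraries. Replicate 4 had the highest B cell, neutrophil, myeloid and platelet sums of the TEPP-46 libraries, and replicate 5 the highest mast cell sum. The part of these cells in the Serpinb9b level was not tested.

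Serpina3g, known as Spi2A, inhibits lysosomal cysteine cathepsins that escape into the cytosol and protects T cells from that form of death. It stood at 104.8, 48.7 and 27.8 CPM in TEPP-46 replicates 1, 4 and 5, against 24.0, 12.5 and 13.6 CPM in DMSO replicates 1, 4 and 5 and 11.7, 8.19 and 10.6 CPM in the resting libraries. Every TEPP-46 library was above every DMSO library, and every DMSO library above every resting library. Serpina3g rose 3.62-fold by group means in TEPP-46 relative to DMSO cells (1.86 ± 0.46, edgeR adjusted p = 0.0258) and 5.96-fold relative to resting cells (2.57 ± 0.48, edgeR adjusted p = 0.0109). Activation with DMSO did not pass the test (0.71 ± 0.47, edgeR adjusted p = 0.269). The first call was lost without any single DMSO library (adjusted p up to 0.106) and when only the groups compared were fitted (adjusted p = 0.0541), and the second without resting replicate 4 (adjusted p = 0.0528).

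Serpina3f, its neighbour on chromosome 12, had the widest range of all members. It stood at 540.4, 42.0 and 33.3 CPM in TEPP-46 replicates 1, 4 and 5, against 32.9, 12.2 and 9.33 CPM in DMSO replicates 1, 4 and 5 and 3.22, 1.85 and 4.11 CPM in the resting libraries. TEPP-46 replicate 1 held 12.9 times the level of replicate 4 and 16.2 times that of replicate 5, while replicate 5 was barely above the highest DMSO library. The log2 difference between TEPP-46 and DMSO cells was 3.50 ± 0.99, and 1.04 without TEPP-46 replicate 1. Relative to resting cells it was 6.04 ± 1.16, and 3.58 without that replicate. With activation alone, DMSO cells were 5.93-fold above resting cells by group means without passing the test (2.54 ± 1.09, edgeR adjusted p = 0.0997), and with a call when TEPP-46 replicate 1 was left out (edgeR adjusted p = 0.00402). Within the DMSO group, replicate 1 was the highest library for Serpina3f, Serpina3g, Serpinb9 and Serpinb6b, and the lowest for Gzmb.

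**Figure D2:**
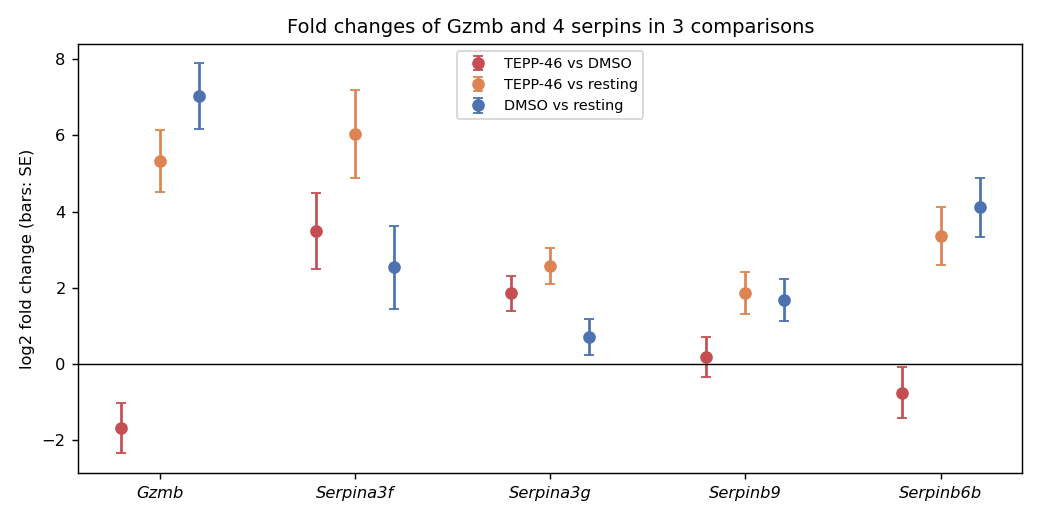
Log2 fold change with its SE (vertical axis) of Gzmb and 4 serpins in TEPP-46 against DMSO, TEPP-46 against resting and DMSO against resting cells, 3 libraries per group. Gzmb has its largest value in DMSO against resting cells (7.02) and Serpina3f in TEPP-46 against resting cells (6.04). Serpinb9b is not drawn because its reference groups hold 1 count each.

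In all, 3 of 6 members rose in DMSO relative to resting cells (Gzmb, Serpinb6b and Serpinb9) and 0 fell. Over all genes tested 31.2% were called in this comparison, 15.5% higher and 15.8% lower. Serpinb9b is left out of the TEPP-46 counts of calls, since the filter chose it through those libraries. Of the 3 other members whose TEPP-46 values did not enter the choice, 1 rose in TEPP-46 relative to DMSO cells (Serpina3g) and 0 fell, where 16.2% of all genes were called, 9.72% higher and 6.43% lower. In TEPP-46 relative to resting cells 2 of those 3 rose (Serpina3g and Serpinb6b) and 0 fell, where 10.3% were called, 6.37% higher and 3.92% lower. In DMSO against resting cells the libraries did not overlap for 5 of 6 members, all higher, while 59.2% of all genes were separated, 29.2% higher and the rest lower. In TEPP-46 against DMSO cells 4 of 6 were separated, Gzmb lower and 3 serpins higher (Serpinb9b included), while 39.7% of all genes were, 19.7% higher and the rest lower. In TEPP-46 against resting cells 5 of 6 were separated, all higher, while 26.8% of all genes were, 12.6% higher and 14.1% lower. As the set was chosen with these data known, the counts describe it and support nothing further.

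The ratio of summed serpin transcripts to Gzmb transcripts differed between the 3 groups in every library. The sum includes Serpina3g and Serpinb6b, described above as inhibitors of cathepsins and of granzyme A, so it does not measure inhibition of granzyme B. Per kb of exon, Gzmb reached 251.5, 33.9 and 37.9 CPM per kb in TEPP-46 replicates 1, 4 and 5, against 285.9, 431.4 and 326.7 CPM per kb in DMSO replicates 1, 4 and 5 and 1.96, 3.86 and 2.26 CPM per kb in the resting libraries. The 5 serpins summed to 393.6, 57.1 and 55.5 CPM per kb in TEPP-46, 107.0, 67.4 and 78.0 in DMSO and 14.6, 12.1 and 13.04 in resting libraries. Their sum was therefore 1.57, 1.68 and 1.46 times the Gzmb level in the TEPP-46 libraries, 0.374, 0.156 and 0.239 times in the DMSO libraries and 7.46, 3.13 and 5.77 times in the resting libraries. The ratio varied from 1.46 to 1.68 among TEPP-46 libraries whose Gzmb levels differed 7.41-fold, and the 3 groups did not overlap. This ratio is taken within a library and so does not depend on the scaling between libraries, and it is a description, since Gzmb and Serpina3f enter it. Serpina3f and Serpina3g made up 285.8 of 393.6 CPM per kb in TEPP-46 replicate 1, 41.5 of 57.1 in replicate 4 and 27.8 of 55.5 in replicate 5.

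Against Serpinb9 alone, Gzmb was 9.13, 7.24 and 3.89 times higher per kb in TEPP-46 replicates 1, 4 and 5. In the DMSO libraries that ratio was 17.3, 45.8 and 29.4, and in the resting libraries 0.405, 1.22 and 0.652. Here too each TEPP-46 library lay between the resting and the DMSO libraries. The per-length order of mean levels in DMSO cells was Gzmb (348.0 ± 75.0 CPM per kb), Serpinb6b (55.9 ± 8.98), Serpinb9 (12.4 ± 3.74), Serpina3g (7.94 ± 3.03), Serpina3f (7.92 ± 5.60) and Serpinb9b (0.0244 ± 0.0423), SD with n = 3. In that order Serpinb9, Serpina3g and Serpina3f were within their spread of each other. In TEPP-46 cells the order was Gzmb (107.8 ± 124.5 CPM per kb), Serpina3f (89.6 ± 126.8), Serpinb6b (33.1 ± 39.3), Serpina3g (28.7 ± 18.9), Serpinb9 (14.0 ± 12.01) and Serpinb9b (3.27 ± 1.13), where the spread of the first 5 covered the gaps between neighbours. In resting cells the order was Serpina3g (4.82 ± 0.85), Serpinb9 (3.83 ± 0.89), Serpinb6b (3.24 ± 0.84), Gzmb (2.69 ± 1.02) and Serpina3f (1.34 ± 0.50), with Serpinb9b lowest (0.0215 ± 0.0373). The resting ranges of Serpina3g and Serpina3f did not overlap.

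**Figure D3:**
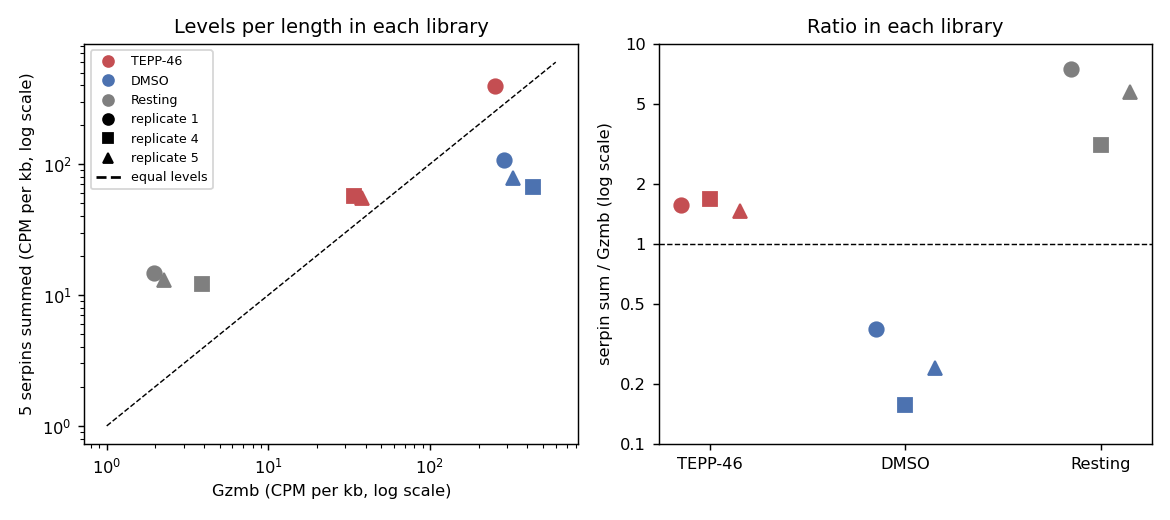
Left, summed level of the 5 serpins against the level of Gzmb in each library, both in CPM per kb of exon on log axes, with a dashed line at equal levels; right, the ratio of serpin sum to Gzmb per library on a log axis. The ratios are 1.46 to 1.68 in TEPP-46, 0.156 to 0.374 in DMSO and 3.13 to 7.46 in resting libraries.

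Most members shared the unevenness of the TEPP-46 libraries for which Gzmb and Serpina3f were chosen. The SD of log2 CPM among TEPP-46 libraries was 2.21 for Serpina3f, 1.76 for Serpinb6b, 1.61 for Gzmb, 1.25 for Serpinb9, 0.95 for Serpina3g and 0.55 for Serpinb9b, against a median of 0.51 over all genes. Replicate 1 was the highest TEPP-46 library for 5 of 6 members, as it was for 38.0% of all genes tested. Gzmb and Serpina3f are among these 5 and were chosen for this unevenness, so the count is only a description. The others were Serpinb6b, Serpinb9 and Serpina3g. It exceeded the mean of replicates 4 and 5 by 2.79 on the log2 scale for Gzmb, 3.83 for Serpina3f, 2.93 for Serpinb6b, 1.99 for Serpinb9 and 1.49 for Serpina3g, against a median of 0.02 over all genes. Replicate 1 was also the TEPP-46 library with the lowest Malat1, the lowest platelet sum and the highest sum of 6 activation genes (3712, 2180 and 2605 CPM in replicates 1, 4 and 5, against 4489 to 5537 CPM in DMSO and 205.5 to 354.4 CPM in resting libraries). The part of these differences in the members' levels was not tested.

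Gzmb and Serpina3f ran with different genes. Likeness was the Pearson correlation of log2 CPM over the 9 libraries, among 8718 other genes with a mean of at least 10 CPM, given as a description since the points share their 3 groups and their libraries. Genes most like Gzmb included Il2ra (r = 0.995), Cd81 (0.994), Ccdc50 (0.99) and Eef2 (0.987). Il2ra, which encodes the high-affinity subunit of the receptor for interleukin-2, had 833.3, 273.5 and 310.6 CPM in TEPP-46 replicates 1, 4 and 5, against 1449 to 1656 CPM in DMSO and 28.6 to 65.5 CPM in resting libraries. This is the order seen for Gzmb, with replicate 1 nearest to the DMSO libraries. The genes most like Serpina3f were Serpina3g (r = 0.964), Igtp (0.95), Stat2 (0.949), Tap1 (0.948) and Ergic3 (0.924). Igtp is an interferon-induced GTPase, Stat2 a signal transducer of type I interferon and Tap1 the peptide transporter of antigen presentation. Igtp had 2940, 1142 and 1689 CPM in TEPP-46 replicates 1, 4 and 5, against 714.1 to 896.8 CPM in DMSO and 311.3 to 411.6 CPM in resting libraries. As with Serpina3f, every TEPP-46 library exceeded every DMSO library and replicate 1 was the highest. Between members, the highest correlations were those of Gzmb with Serpinb6b (r = 0.971) and of Serpina3f with Serpina3g.

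**Figure D4:**
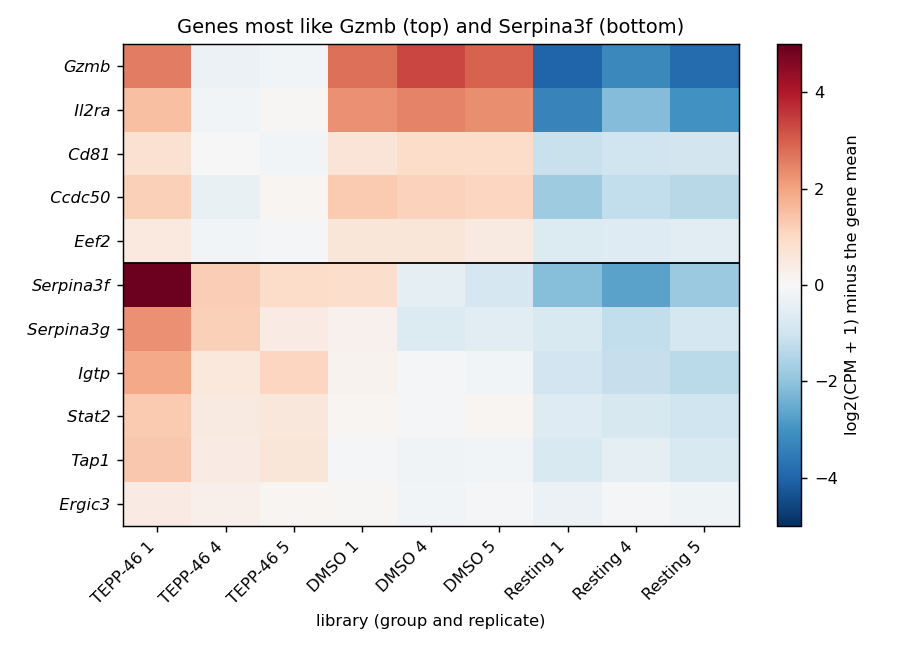
Colour gives log2(CPM + 1) minus the gene's mean over the 9 libraries, for Gzmb and 4 of the genes most like it (top) and Serpina3f and the 5 most like it (bottom), in columns by group and replicate. Gzmb and Il2ra are highest in the DMSO libraries, and the lower block is highest in TEPP-46 replicate 1.

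Listed regulators of Gzmb moved in both directions. Of 22 transcription factors and cytokine receptor chains, 8 rose and 3 fell in DMSO relative to resting cells, with a median of 0.39, where 15.5% of all genes tested rose and 15.8% fell. Il2ra rose by 5.15 ± 0.51 (edgeR adjusted p = 0.000226), Rbpj, the nuclear partner of Notch, by 2.26 ± 0.20 (edgeR adjusted p = 0.000167), and Runx3, a factor of cytotoxic T cells, by 2.10 ± 0.30 (edgeR adjusted p = 0.00108). The factor gene Id2 fell by 2.09 ± 0.29 (edgeR adjusted p = 0.00104). With TEPP-46 relative to DMSO, 5 rose and 2 fell, with a median of 0.34, where 9.72% of all genes rose and 6.43% fell. Rbpj (-1.04 ± 0.20, edgeR adjusted p = 0.00947) and Il2ra (-1.69 ± 0.44, edgeR adjusted p = 0.0288) were the 2 that fell. Among those that rose, Bach2, a repressor of effector genes, reached 529.9 ± 197.8 CPM in TEPP-46 and 158.5 ± 36.7 CPM in DMSO libraries (1.74 ± 0.35, edgeR adjusted p = 0.0117), and Il2rg, the shared gamma chain, rose by 1.42 ± 0.26 (edgeR adjusted p = 0.00813) and Id2 by 1.39 ± 0.29 (edgeR adjusted p = 0.0129). Without DMSO replicate 5 the counts were 0 and 0, and without DMSO replicate 1 or 4 or TEPP-46 replicate 5 they were 2 and 1.

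Of 12 listed genes for substrates of granzyme B and its uptake receptor, 2 fell in DMSO relative to resting cells. Over all genes tested 15.8% fell in that comparison. In TEPP-46 relative to DMSO cells 0 of the 12 passed in edgeR, where 16.2% of all genes did. Dffb, the nuclease that cuts DNA in dying cells, fell by 1.22 ± 0.24 with activation (edgeR adjusted p = 0.00476). The nuclear matrix gene Numa1 was the other that fell (-0.85 ± 0.29, edgeR adjusted p = 0.0487), a call lost in 10 of 18 alternatives (-0.52, adjusted p = 0.163, without resting replicate 1; lost as well without resting replicate 4, any DMSO library or TEPP-46 replicate 5). In TEPP-46 relative to DMSO cells, 6 of the 12 had an unadjusted edgeR p below 0.05, as had 33.8% of all genes tested. DESeq2 called 1 higher and 1 lower, limma-voom with quality weights 4 and 4, and edgeR without TEPP-46 replicate 1 called 3 and 3.

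Serpina3g acts on cysteine cathepsins, and the list tested here also held cathepsins of other classes and cystatins, which are inhibitors. Of 12 genes tested, 4 rose and 1 fell in TEPP-46 relative to DMSO cells, where 9.72% of all genes rose and 6.43% fell. In DMSO relative to resting cells 1 rose and 5 fell, where 15.5% rose and 15.8% fell, and the 5 became 3 without resting replicate 4 or DMSO replicate 4. Ctsa, a serine carboxypeptidase, stood at 337 ± 108 CPM in TEPP-46 and 78.3 ± 14.2 CPM in DMSO libraries (2.10 ± 0.29, edgeR adjusted p = 0.00288), a call that held in each alternative. Ctse, an aspartic protease, rose by 2.41 ± 0.46 (edgeR adjusted p = 0.00947) and Ctso by 1.77 ± 0.35 (edgeR adjusted p = 0.0112), whereas Ctsz fell (-0.96 ± 0.24, edgeR adjusted p = 0.0269). Ctsf, also among the 4 (3.48 ± 0.79), would not have passed the filter on low counts without the TEPP-46 libraries. Its counts rather than a test describe it. They were 42, 41 and 101 in TEPP-46 replicates 1, 4 and 5, against 7, 5 and 10 in DMSO and 45, 5 and 6 in resting libraries. With activation the order was turned for Ctsa (-1.26 ± 0.28, edgeR adjusted p = 0.00827), Ctse (-2.31 ± 0.45, edgeR adjusted p = 0.0045), Ctso (-1.63 ± 0.35, edgeR adjusted p = 0.00657) and Ctsz (1.41 ± 0.24, edgeR adjusted p = 0.00251), in a comparison that shares the DMSO libraries. Without DMSO replicate 1, 4 or 5 the rises with TEPP-46 numbered 2, 2 and 1, and the fall was lost. In TEPP-46 relative to resting cells 0 of the 12 were called, where 10.3% of all genes tested were. The alternatives called 0 to 2 higher and 0 to 1 lower.

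Other serpins were mostly absent from these libraries or low. Of 21 other clade A serpins, 17 had 0 counts in all 9 libraries, among them Serpina3n, a secreted inhibitor of granzyme B in mouse, and 0 were tested. Of 24 other clade B serpins, 17 had 0 counts in all libraries, among them the Serpinb9 relatives Serpinb9c to Serpinb9g, and 2 were tested. Serpinb6a, a broad intracellular protease inhibitor and relative of Serpinb6b, had 54.2, 31.1 and 72.8 CPM in TEPP-46 replicates 1, 4 and 5, against 17.4, 16.6 and 9.08 CPM in DMSO replicates 1, 4 and 5. Its level was 31.4, 34.9 and 42.8 CPM in resting replicates 1, 4 and 5. TEPP-46 and resting cells could not be told apart for Serpinb6a (0.54 ± 0.35, edgeR adjusted p = 0.357). It rose in TEPP-46 relative to DMSO cells (1.88 ± 0.36, edgeR adjusted p = 0.00993) and fell with activation (-1.34 ± 0.36, edgeR adjusted p = 0.0179), against the rise of 4.11 in Serpinb6b. Both calls were lost without DMSO replicate 5 (adjusted p = 0.0544 and 0.0783), and the fall also without resting replicate 5 (0.0592). Of 11 serpins of other clades 4 were tested. In DMSO relative to resting cells 2 rose and 1 fell, where 15.5% of all genes tested rose and 15.8% fell. In TEPP-46 relative to DMSO cells 1 rose, where 9.72% of all genes rose. Serpinf1, 1 of the 2 that rose with activation, passed the filter on low counts only through the DMSO libraries, so its rise is a description. It had 3.19, 3.60 and 2.52 CPM in DMSO replicates 1, 4 and 5, against 0.20, 0.79 and 0.87 CPM in the resting libraries. Serpini1, which averaged 15.2 CPM in resting libraries, was the gene that rose with TEPP-46 relative to DMSO. It stood at 9.32 CPM on average in TEPP-46 and 2.44 CPM in DMSO libraries (1.93 ± 0.47, edgeR adjusted p = 0.0239). That call was lost in 6 of 18 alternatives, among them each DMSO library or TEPP-46 replicate 5 left out (adjusted p up to 0.104). Serpine2, a secreted inhibitor of thrombin and plasminogen activators, averaged 142.6 ± 136.4 CPM in TEPP-46 libraries (1091, 143 and 209 counts in replicates 1, 4 and 5), against 49.8, 66.0 and 70.6 CPM in the DMSO libraries and 3.42, 3.96 and 3.68 CPM in the resting libraries. It rose with activation (4.07 ± 0.63, edgeR adjusted p = 0.00156) and was highest in TEPP-46 replicate 1, as was Serpina3f, with no call against DMSO cells (1.20 ± 0.52, edgeR adjusted p = 0.135).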

How the data were processed

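Per the labels' protocols, total RNA was extracted with a PureLink kit, converted to libraries by a NEBNext kit for low input and sequenced on a HiSeq. The table deposited by the authors holds counts of reads for each gene, as whole numbers without normalization. The submitters' processing notes name GRCm38 and DESeq2, while the aligner, counter and strand setting were not stated in the sources read for it. Of 47937 identifiers, 47224 were paired with a GENCODE M21 symbol. Total counts ran from 2397304 to 5030643, and 3 counts corresponded to between 0.603 and 1.26 CPM in a library. Intervals and floors reflect counting error alone. Of 23436 genes with counts, 12536 passed filterByExpr (minimum count 10, minimum total 15). All 9 libraries were fitted by group with TMM factors and the quasi-likelihood test of edgeR 4.0.16 (R 4.3.3), two-sided, with Benjamini-Hochberg adjustment and a threshold of 0.05; the code was tested on simulated data. Log2 CPM used a prior count of 2. Transcripts were aligned with mafft 7.526. Members and lists were chosen with earlier results of these data known. Up to 4 genes per list and comparison were named in order of adjusted p, and the 5 genes most like Gzmb and Serpina3f by correlation; a few of these results are not reported here. Alternatives were DESeq2 1.42.0, limma-voom 3.58.1 with and without quality weights, other scaling and filters, only the groups compared, a replicate block and leaving out each library.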

Additional observations from a re-analysis of the deposited data

How the results depend on the processing

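Activation of Gzmb in DMSO relative to resting cells kept its direction and call under all 18 alternatives (log2 fold change 6.84 to 7.35). With Serpinb9b, which passed the filter through the TEPP-46 libraries, counted in, the count of members called in TEPP-46 relative to DMSO cells was 2, and 1 with a minimum count of 30, under which Serpinb9b could not be tested, and 1 with only the groups compared; leaving out each library in turn gave 1 to 3. In TEPP-46 relative to resting cells the count was 3, with 1 to 4 when a library was left out and 1 without resting replicate 4. In DMSO relative to resting cells it was 3, with 2 to 4 when a library was left out. For Serpinb9 in TEPP-46 relative to DMSO cells the log2 difference of 0.19 was -0.0598 in limma-voom and -0.165 with quality weights. Leaving out a library gave -0.776 to 0.598, the lowest without TEPP-46 replicate 1; the cause was not tested. Serpinb6b in this comparison was called with quality weights (-1.81, adjusted p = 0.00055). Over all genes, 2025 were called in TEPP-46 relative to DMSO cells, 3057 with DESeq2, 6164 with quality weights, and 395 to 4407 when a library was left out. In TEPP-46 relative to resting cells 1289 were called, 2090 with DESeq2, 3360 with quality weights, 400 with only the groups compared and 426 to 1897 when a library was left out. In DMSO relative to resting cells 3914 were called, 7315 with quality weights and 2316 to 5194 when a library was left out. TEPP-46 replicate 4 had the lowest depth, which limits the precision of low genes.

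Libraries with the same replicate number did not deviate together over all genes tested (correlations of -0.128 to 0.0889). Deviations from means of 3 libraries cannot tell whether such libraries share an animal or a day, which the labels do not state. With the replicate block, 1384 genes were called in TEPP-46 relative to DMSO cells, 705 in TEPP-46 relative to resting cells and 3339 in DMSO relative to resting cells, against 2025, 1289 and 3914 without it. The Serpinb9 difference between TEPP-46 and DMSO cells was -0.0611 with the block, and the members called numbered 2, 2 and 3 in the same order of comparisons.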
